A study of Mus musculus with 8 samples.

Results

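The suppressors of cytokine signalling are a family of 8 proteins, SOCS1 to SOCS7 and CISH, and their transcripts were read on arrays of mouse thyroids taken 24 hours after exposure to 99mTcO4- and of control thyroids. The members were taken by name, as every mouse probe whose gene name on the array was Socs1 to Socs7 or Cish, which gave 8 of the 34797 gene names, 14 of the 55681 probes and 23 of the 59305 spots. The family was taken up because Socs1 was among the largest falls in this contrast, so the differences between exposed and control thyroids in its members are given as a description, and no test is drawn from them. Each of the 8 genes was represented. Socs2 and Socs6 had 4 probes each, and every other member had 1.

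Cytokines such as interferons, interleukins, growth hormone and prolactin signal through receptors that carry Janus kinases (JAKs). The kinases phosphorylate STAT transcription factors, which move to the nucleus and switch on target genes, among them several SOCS genes. SOCS proteins close this loop: they bind the kinase or the activated receptor through an SH2 domain, and through their SOCS box they recruit elongins B and C, cullin 5 and a ubiquitin ligase that marks the bound protein for degradation. In the thyroid, interferon gamma is known to raise MHC molecules on follicular cells and to lower their iodide handling, and SOCS1 is the family's main brake on interferon gamma signalling.

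All thyroids came from female Balb/c mice aged 8 weeks, and the sources name no transgene or deletion in them. The exposed group was 4 mice that received 99mTcO4-, a short-lived technetium isotope that thyroid cells take up like iodide, by intraperitoneal injection, with an absorbed thyroid dose of 30 Gy, and the control group was 4 mice described as untreated in the results of the study and as given saline in a figure legend. The samples carry the names control 1 to 4 and S539, S588, S589 and S590, with 1 mouse and 1 one-colour array each. RNA was taken from the dissected thyroid and not from sorted cells, so fewer cells of a type and less RNA per cell cannot be told apart in any value below. The 8 arrays shared 1 slide and 1 scan, the exposed samples lay in its first positions and the controls in the others, and position and group cannot be told apart. Between 60.5% and 77.3% of the spots of an array were well above background and no spot was saturated. All 8 thyrocyte markers, thyroglobulin and thyroid peroxidase among them, were well above background on every array, so the defining markers of the labelled tissue were present. Values are log2 of the background-subtracted spot signal, quantile-normalized between arrays, and a difference is the exposed mean minus the control mean on this log2 scale, with its standard error (SE). A level on this scale can be compared between arrays for 1 probe, but not between probes.

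Start regions of members are shown first, because STAT factors are known to induce several SOCS genes. RefSeq promoter windows of assembly GRCm38.p6, 250 bases before to 50 bases after a transcription start, were matched for 4 of the 8 members, Socs1, Socs3, Socs4 and Cish. Socs2, Socs5, Socs6 and Socs7 were not matched. On both strands, 3 patterns were sought. They were TTCNNNGAA, the palindrome most STAT factors bind, its form with 4 bases between TTC and GAA, preferred by STAT6, and the pair GAAA and GAAA with 2 bases between, the core of the interferon-stimulated response element that interferon regulatory factors bind. Positions below are counted from the start, with base 1 the first transcribed base and -1 the base before it. Capitals mark the matches. The first sequence is shown because Socs1 had the largest difference of the family, and it is the whole stretch before its start (chr16:10785537-10785786, minus strand). The others are short stretches of Cish (chr9:107296654-107296683, plus strand, at the first bases of the transcript) and Socs3 (chr11:117969501-117969530, minus strand, upstream of the start), shown as the members with a STAT palindrome.
Socs1: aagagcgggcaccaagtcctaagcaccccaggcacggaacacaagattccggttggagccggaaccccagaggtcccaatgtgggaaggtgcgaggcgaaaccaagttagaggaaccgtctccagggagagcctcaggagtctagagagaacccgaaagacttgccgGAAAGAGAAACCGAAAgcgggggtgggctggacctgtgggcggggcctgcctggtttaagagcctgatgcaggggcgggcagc
Cish: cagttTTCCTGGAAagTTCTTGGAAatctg
Socs3: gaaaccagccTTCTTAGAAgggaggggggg

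In Socs1, the interferon response core occurred 2 times, at -83 to -74 and at -77 to -68, and these matches overlap in a single run of capitals. Neither STAT palindrome occurred in its window. Cish held TTCNNNGAA 2 times, at 1 to 9 and 12 to 20, and Socs3 held it 1 time, at -154 to -146. The window of Socs4 held none of the 3 patterns. Of 32851 promoter windows of the same length, 8.3% held TTCNNNGAA, 6.95% its longer form and 3.44% the interferon response core, so each pattern is common enough that a match is no more than a description of the letters.

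Across the family, Socs1 was the member that differed most between the groups, 5.45-fold lower in exposed thyroids. The Socs2 probes were all modestly higher, by 1.29-fold to 1.54-fold, and the remaining members overlapped between the groups. Of the 14 probes, 1 passed limma's threshold of 0.05 on the adjusted p, where 0.781% of all probes did, and since the family was chosen on this contrast nothing is read from that count. The 4 exposed arrays lay below all 4 control arrays for 1 probe (4.37% of all probes), above them for 4 probes, all of Socs2 (4.74% of all probes), and overlapped with them for 9. The log2 difference was above 0 for 7 probes and below 0 for 7, with a median of -0.12. Signals were well above background on all 8 arrays for 12 of the probes, and the exceptions were 2 probes of Socs6.

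**Figure D1:**
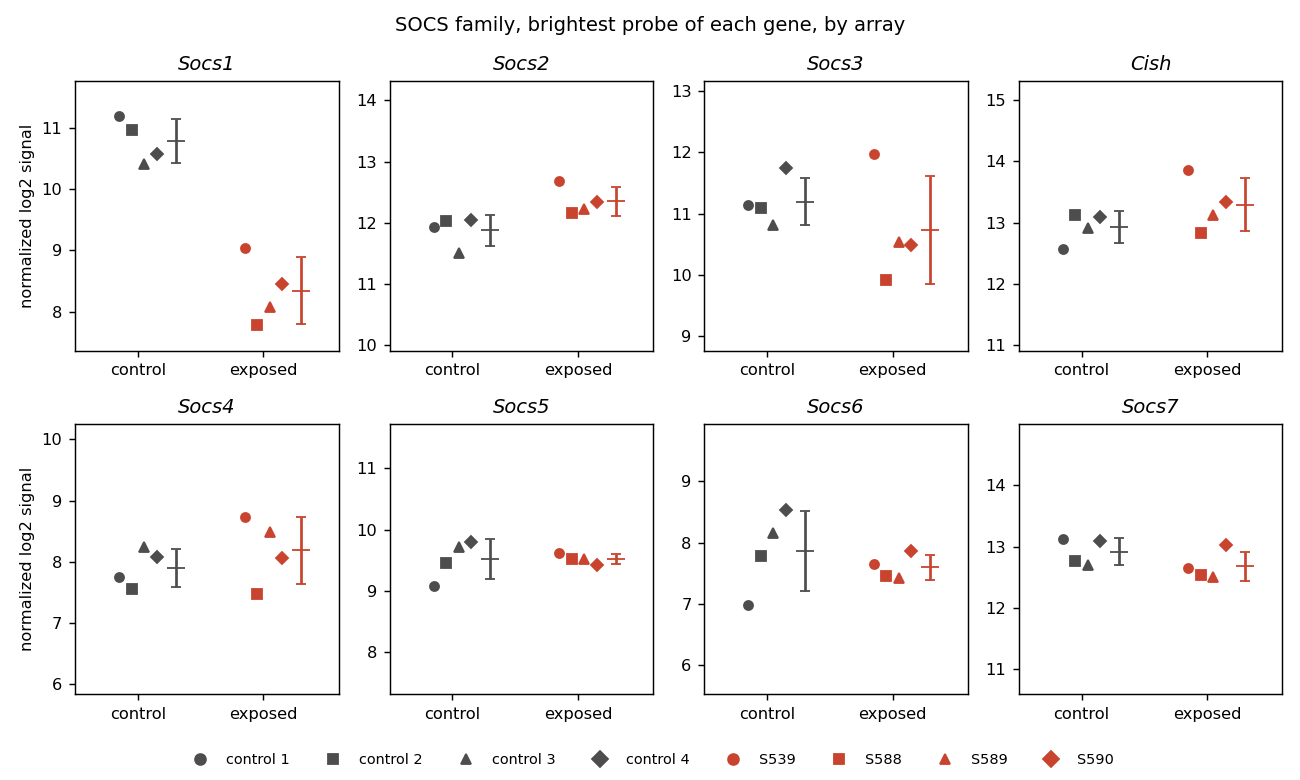
Normalized log2 signal of the 8 SOCS family genes, each through its brightest probe, on the 4 control (grey) and 4 exposed (red) arrays; 1 symbol marks 1 mouse, and the horizontal bar and whiskers give the group mean ± SD. All panels span the same number of log2 units. Socs1 is lower on all 4 exposed arrays (7.78 to 9.04 against 10.41 to 11.19) and Socs2 is higher on all 4 (12.16 to 12.68 against 11.50 to 12.05), while the other genes overlap.

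Socs1 encodes a direct inhibitor of JAK1, JAK2 and TYK2 and limits signalling by interferons and by interleukins such as IL-2 and IL-4. Its probe (A_51_P279606, chr16:10783951-10784010 in mm9, minus strand) read 11.19, 10.97, 10.41 and 10.57 on controls 1 to 4, and 9.04, 7.78, 8.08 and 8.46 on S539, S588, S589 and S590. Every exposed array lay below every control array, and the highest exposed value was more than a log2 unit under the lowest control value. The means were 10.79 ± 0.36 in control and 8.34 ± 0.55 in exposed thyroids (SD, n = 4 each), a log2 difference of -2.45 (SE 0.31). Over the 16 alternative settings and array sets tried, the difference ranged from -2.68 to -2.11. Without control 2 it was -2.39, without S589 -2.36 and without S590 -2.49, and in these fits the probe was no longer past limma's threshold. As with the count above, these calls describe the settings and nothing is read from them.

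Socs2 is induced by growth hormone and prolactin through STAT5 and restrains growth hormone receptor signalling. Its main probe (A_51_P107362, chr10:94875066-94875125 in mm9, minus strand), printed on the array in 10 spots that were averaged, read 11.93, 12.03, 11.50 and 12.05 on controls 1 to 4. On S539, S588, S589 and S590 it read 12.68, 12.16, 12.22 and 12.34. The lowest exposed array, S588, stood only just above the highest control array, control 4, and the log2 difference was 0.47 (SE 0.19).

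A second Socs2 probe, A_55_P1992834, read 11.30, 11.54, 11.07 and 11.49 on the controls and 12.02, 12.26, 11.73 and 11.87 on the exposed arrays, a log2 difference of 0.62 (SE 0.17). The third, A_55_P1992838, read 10.89, 11.21, 10.70 and 11.27 against 11.77, 11.55, 11.44 and 11.55, with 0.56 (SE 0.17). In both, control 3 was the lowest array and the groups did not overlap. The probe A_55_P2072586 (chr10:94848005-94848064 in mm9), assigned to an Ensembl transcript of the gene that lies away from the other 3 probes, read 8.76, 8.72, 8.55 and 8.77 against 8.85, 9.02, 9.18 and 9.21. Its log2 difference was 0.36 (SE 0.14), and here S539 was the lowest of the exposed arrays, whereas it was the highest for the main probe. These 4 probes are assigned by the array to the same gene, were read in the same RNA and are not replicates of each other. None passed limma's threshold in any setting tried, and over those settings the differences ranged from 0.31 to 0.70.

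Cish, the first member of the family to be described and a STAT5 target in the response to IL-2, IL-3, growth hormone and erythropoietin, had 1 probe (A_51_P470715, chr9:107204196-107204255 in mm9, plus strand). It read 12.57, 13.13, 12.92 and 13.10 on the controls and 13.86, 12.84, 13.12 and 13.34 on the exposed arrays. S539 and S590 were above every control, S588 was below 3 of the 4, and the groups overlapped. The log2 difference was 0.36 (SE 0.25).

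Socs3 is induced mainly by IL-6 family cytokines through STAT3 and blocks signalling from the gp130 receptor chain. Its probe (A_51_P474459, chr11:117827480-117827539 in mm9, minus strand) read 11.14, 11.09, 10.82 and 11.74 on the controls and 11.98, 9.92, 10.54 and 10.49 on the exposed arrays. The exposed arrays were the more scattered, with an SD of 0.88 against 0.39: S539 was the highest of all 8 arrays and the other 3 exposed arrays were below every control. The log2 difference of -0.47 (SE 0.43) therefore depended on S539, and without that array it was -0.88.

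**Figure D2:**
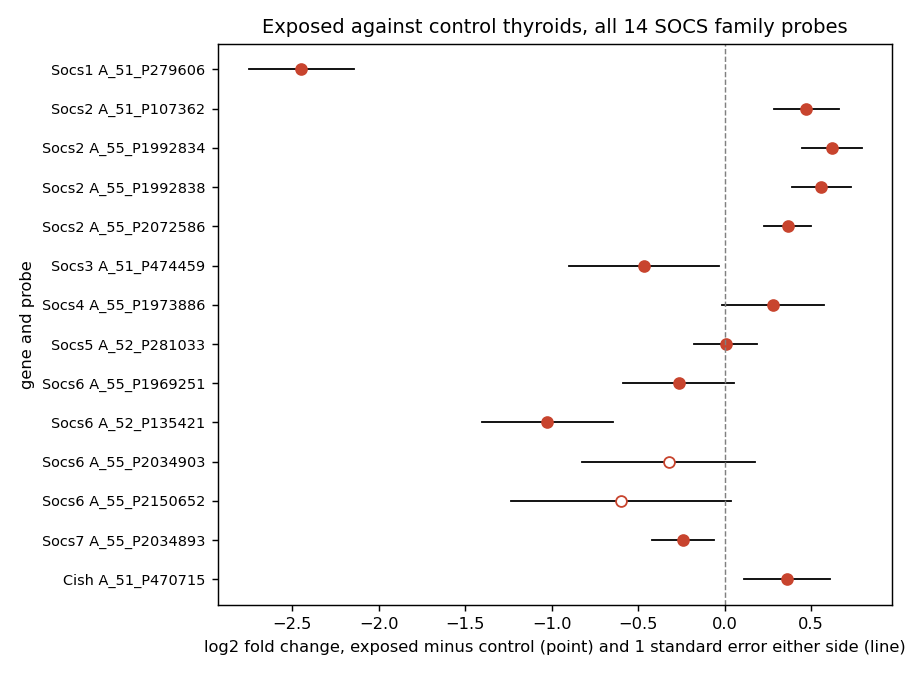
Log2 difference (exposed minus control) of all 14 SOCS family probes, with 1 standard error to either side; filled points are probes well above background on all 8 arrays and open points are the 2 that were not. The Socs1 probe stands at -2.45, the 4 Socs2 probes lie between 0.36 and 0.62, and the other probes lie between -1.03 and 0.36.

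The remaining members, SOCS4 to SOCS7, are less tied to cytokine induction. SOCS4 and SOCS5 act on the EGF receptor, and SOCS6 and SOCS7 bind components of receptor tyrosine kinase and insulin signalling. Socs4 (A_55_P1973886, chr14:47911161-47911220 in mm9) read 7.75, 7.55, 8.24 and 8.08 on the controls and 8.72, 7.47, 8.49 and 8.06 on the exposed arrays. S539 was the highest and S588 the lowest of all 8, and the log2 difference was 0.28 (SE 0.30).

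Socs5 (A_52_P281033, chr17:87536500-87536559 in mm9) read 9.08, 9.46, 9.72 and 9.80 against 9.62, 9.52, 9.53 and 9.42. The means differed by 0.01 (SE 0.18), and the sign of so small a difference turned in 7 of the 16 alternatives. The exposed arrays were close together (SD 0.08, against 0.32 in controls) and lay inside the range of the controls.

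Socs7 (A_55_P2034893, chr11:97259763-97259822 in mm9) read 13.12, 12.77, 12.69 and 13.09 against 12.66, 12.53, 12.50 and 13.02. While 3 of the 4 exposed arrays were below all controls, S590 lay inside their range. The log2 difference was -0.24 (SE 0.18).

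Socs6 was read by 4 probes on chromosome 18, and the log2 difference was below 0 for each of them. The brightest, A_55_P1969251, read 6.99, 7.78, 8.16 and 8.52 on the controls and 7.65, 7.46, 7.42 and 7.86 on the exposed arrays, a log2 difference of -0.27 (SE 0.32). Control 1 was the lowest and control 4 the highest of all 8 arrays, so the exposed arrays lay inside the control range. The probe A_52_P135421 read 7.26, 6.77, 8.57 and 7.35 against 6.59, 6.40, 6.05 and 6.81, with -1.03 (SE 0.38), and only S590 reached the range of the controls. The probe A_55_P2034903, well above background on 3 arrays of each group, gave -0.32 (SE 0.50), and its sign turned to 0.078 when arrays were scaled by their 75th percentile in place of quantile normalization. The probe A_55_P2150652, well above background on 1 array of each group, gave -0.60 (SE 0.64), a difference that rests on signals near background.

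Some members shared an order among the mice that the grouping does not contain, and others did not. S539 was the highest of the 4 exposed arrays for 9 of the 14 probes, and S588 and S589 were the lowest for 6 each. For Socs1, for the main probe of Socs2 and for Cish the order of the exposed arrays was the same, with S539 highest, then S590, S589 and S588. S590 was the highest for 4 probes, the Socs7 probe among them. As deviations from the group means over the 8 arrays, Pearson's r with Socs1 was 0.77 for Socs2, 0.71 for Socs3 and 0.57 for Cish. It was 0.40 for Socs7, 0.32 for Socs4, -0.32 for Socs6 and -0.41 for Socs5, a description with no test. Among the controls, control 4 was the highest for 7 probes and control 3 the lowest for 7. S539 was thus the upper extreme of its group for Socs1, which was lower in exposed thyroids, for the main probe of Socs2, which was higher, and for Cish, which overlapped.

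Over the 8 arrays, the genes whose pattern was most like that of Socs1, among 13766 genes whose RefSeq probe averaged a log2 signal of 7 or more, were Ccdc12 (Pearson's r = 0.981), Mbd3 (0.971), Lrrc33 (0.970), Vti1a (0.969) and Plxdc1 (0.967). These are descriptions over 8 arrays that fall into 2 groups, so each value includes the group difference. Within groups, as deviations from the group means, r was 0.79 for Ccdc12, 0.92 for Mbd3, 0.69 for Lrrc33, 0.73 for Vti1a and 0.74 for Plxdc1. A like pattern is not a like size: the log2 difference was -0.29 for Ccdc12, -0.32 for Mbd3 and Vti1a, -0.85 for Lrrc33 and -1.28 for Plxdc1, against -2.45 for Socs1.

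The JAK-STAT pathway around the family was then read through 135 genes in 11 lists, from cytokines to STAT target genes. By limma's adjusted p, 1 of the 135 was higher (0.695% of all 34797 genes were) and 1 lower (0.207% were) in exposed thyroids, together 1.48% where 0.902% of all genes passed, and at an unadjusted p under 0.05 the share was 25.2% against 12.8%. The median log2 difference over the 135 genes was -0.15 against 0.01 over all genes, and 35.6% were above 0 against 51%. Scaling by the 75th percentile of an array moved the median of all genes to 0.14 and that of the pathway genes to -0.11. By an unmoderated test, which uses each probe's own variance without limma's sharing of variance between probes, none of the pathway genes was called.

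The gene that rose was Bcl2l1, a STAT5 target that encodes the anti-apoptotic protein Bcl-xL and also answers to other signals. In the study's pathway analysis Bcl2l1 is listed under p53 signaling, among other pathways. It read 14.14, 14.32, 14.20 and 13.66 on the controls and 15.52, 15.13, 15.08 and 15.30 on the exposed arrays, so all exposed arrays were above all controls. The log2 difference was 1.18 (SE 0.19, limma adjusted p = 0.0395), and without any 1 of the 8 arrays it no longer passed, with an adjusted p between 0.0671 and 0.119. The gene that fell was Arg1, arginase 1, a STAT6 target in macrophages. It read 5.62, 5.69, 5.52 and 5.85 against 3.12, 3.15, 4.39 and 3.19 (limma adjusted p = 0.0232), but it was well above background on only 2 of the 4 control arrays and on no exposed array. It no longer passed in 6 of the 8 fits that left out 1 array, those other than control 1 and S589 (adjusted p between 0.0653 and 0.0886). Its log2 difference was -2.20, and -0.75 in the deposited values, where no background is subtracted. The size of the fall therefore depends on signals near background. Against the floor described under processing, Arg1 was 2.13-fold lower, which is not a minimum. The controls were not all well above background, and the fall in the deposited values was smaller than this.

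**Figure D3:**
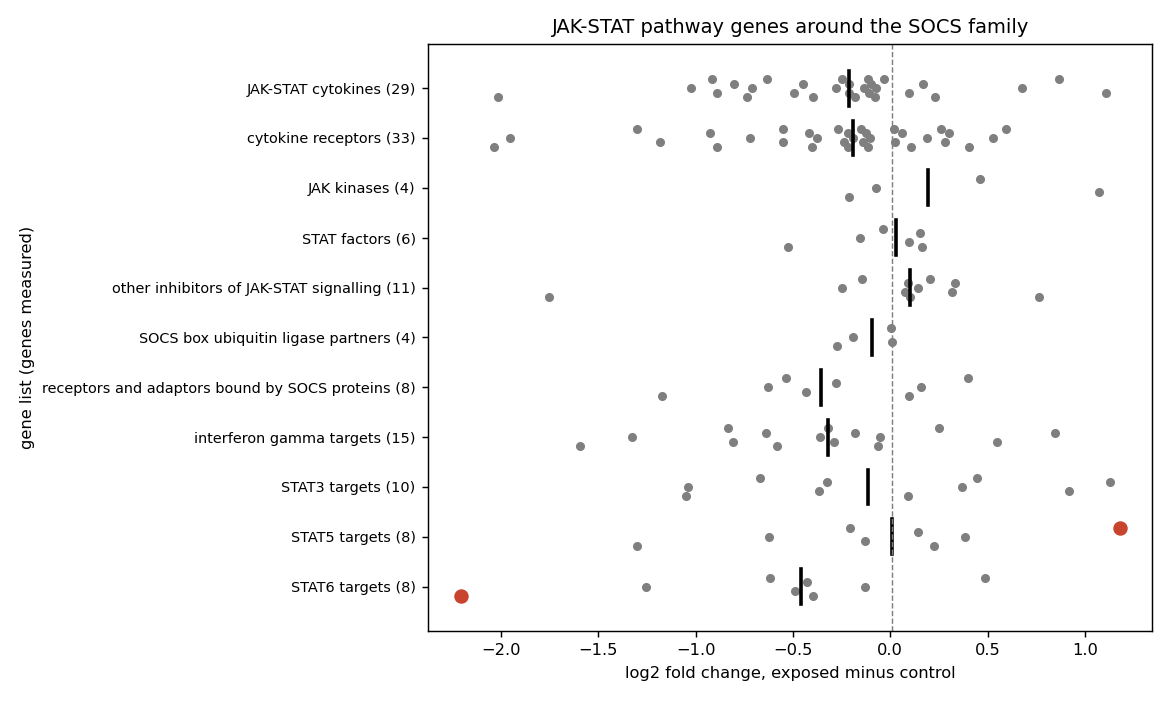
Log2 difference (exposed minus control) of the genes of 11 JAK-STAT lists; 1 point is 1 gene, red points passed limma's threshold (Bcl2l1 above 0 and Arg1 below), black bars are list medians and the dashed line is the median of all genes on the array, 0.01. List medians run from -0.46 for the STAT6 targets to 0.19 for the JAK kinases.

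Among the ligands, 29 cytokines, none passed the threshold in either direction (7 at an unadjusted p under 0.05), 6 were above 0 and the median was -0.21, and only 6 were well above background on all arrays. Among their receptors, 33 genes, none passed (6 at an unadjusted p under 0.05), 11 were above 0 and the median was -0.19. Neither list held a gene called by the unmoderated test.

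Of the 4 JAK kinases, some of which SOCS1 and SOCS3 bind directly, none passed limma's threshold, while 2 had an unadjusted p under 0.05. Jak1 read 13.09 to 13.17 on the controls and 12.83 to 13.05 on the exposed arrays, a small difference of -0.21 (SE 0.12) in which the groups did not overlap. Jak2 differed by -0.07 (SE 0.13) with overlapping groups. Tyk2 differed by 0.46 (SE 0.16), and Jak3, the kinase of the common gamma chain of lymphocyte cytokine receptors, by 1.07 (SE 0.22), with controls from 8.22 to 8.83 and exposed arrays from 9.35 to 10.10. The adjusted p of Jak3 was 0.092 by limma, and it passed the threshold in 6 of 15 alternatives, with the deposited values among them. The study's own pathway analysis of its modulated genes includes JAK3, under IL-4 signaling.

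None of the 6 STAT genes read here passed by limma, and none had an unadjusted p under 0.05. Stat2, a factor of type I interferon signalling, differed by 0.10 (SE 0.22). Stat3 differed by 0.16 (SE 0.19), Stat4 by -0.04 (SE 0.78) and Stat6 by 0.15 (SE 0.15). Stat5a and Stat5b, which drive Cish and Socs2, differed by -0.15 (SE 0.16) and -0.53 (SE 0.25). The groups overlapped for each of these genes.

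The other inhibitors of the pathway, 11 phosphatases, PIAS proteins, Sh2b3 and Usp18, had a median of 0.10 with none called (2 at an unadjusted p under 0.05). The 4 partners of the SOCS box, which include cullin 5 and the elongins, had a median of -0.09 with none called and none at an unadjusted p under 0.05. The 8 receptors and adaptors that SOCS proteins bind, among them the EGF and insulin receptors, had a median of -0.36 with none called (2 at an unadjusted p under 0.05).

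Target genes of interferon gamma and of STAT factors were the last of the lists. Of 15 interferon gamma targets none was called by limma or by the unmoderated test, 7 had an unadjusted p under 0.05 (1 higher and 6 lower), 3 were above 0 and the median was -0.32. Of 10 STAT3 targets none was called (4 at an unadjusted p under 0.05), 5 were above 0 and the median was -0.12. The 8 STAT5 targets had a median of 0.01, with Bcl2l1 called, and the 8 STAT6 targets a median of -0.46, with Arg1 called.

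Several pathway genes stood close to the threshold, and they are named here after their values were seen. Irf8, an interferon-induced factor that dendritic cells also need, read 10.78 to 11.76 on the controls and 9.95 to 10.15 on the exposed arrays, a log2 difference of -1.33 (limma adjusted p = 0.0581). The study's pathway analysis of its modulated genes includes IRF8, under dendritic cell maturation. Kit, a receptor tyrosine kinase that SOCS1 and SOCS6 bind, differed by -1.17 (adjusted p = 0.0512). The receptor gene Il7r differed by -1.96 (adjusted p = 0.0642) and the cytokine gene Il7 by -2.02 (adjusted p = 0.0779). Il7 was well above background on 2 control arrays and no exposed array. Against the floor described under processing it was 1.33-fold lower, which is not a minimum, since not all controls were well above background. Of the 15 alternatives run for these genes, Irf8 passed the threshold in 7, Kit in 6 (the deposited values among them for both) and Il7r in 1, and Il7 passed in none. Besides these and Jak3, Lifr (log2 difference -0.72) passed in 4 and Myc (-1.04) in 2. Among genes that were higher, Ptpn1 (0.77) passed in 2 and Il11 (0.87) in 1.

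Markers of other cells of the gland were set beside Socs1, since immune cells carry SOCS1 as well. A score is the average, over the genes of a list, of the log2 signal on an array minus the gene's own mean. Of the 10 dendritic cell and MHC class II markers, none had a log2 difference above 0, 7 had groups that did not overlap (9.99% of all genes), 2 were lower by limma (1 by the unmoderated test), and the score ran from 0.25 to 1.31 on the controls and from -0.83 to -0.59 on the exposed arrays. H2-Aa, an MHC class II chain, differed by -2.22 (adjusted p = 0.0386). Clec9a, a receptor of cross-presenting dendritic cells, was well above background on all 4 control arrays and on no exposed array, at least 5.61-fold lower (adjusted p = 0.00746). Xcr1, another marker of those cells, was well above background on no array. The part of these cells in the Socs1 difference was not tested.

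T cell markers (8 genes, none called by limma or by the unmoderated test and none at an unadjusted p under 0.05) had scores of 3.17 and 2.06 on controls 1 and 2, -0.89 on controls 3 and 4, and -1.21 to -0.10 on the exposed arrays. Thymocyte markers were high on the same 2 controls, at 2.89 and 2.03, against -1.12 on control 4 and -1.08 to -0.22 on the exposed arrays. Socs1 was also highest on controls 1 and 2. Without these 2 arrays, an alternative chosen after seeing the data, the Socs1 difference was -2.15, and it did not pass limma's threshold. Of the pathway genes named near the threshold, Irf8, Il7r and Il7 were also higher on controls 1 and 2 than on controls 3 and 4. Kit, Jak3, Lifr, Myc, Ptpn1 and Il11 were not. The median over all pathway genes, -0.15, was -0.18 without control 1 and -0.13 without control 2. The part of T cells in the pathway values was not tested. On the exposed arrays the T cell score had the order of Socs1, S539 above S590, S589 and S588. In it S590 (-1.06) and S589 (-1.07) were almost equal. The thymocyte score (S539, S588, S590, S589) and the dendritic cell and MHC class II score (S589, S590, S539, S588) had other orders.

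**Figure D4:**
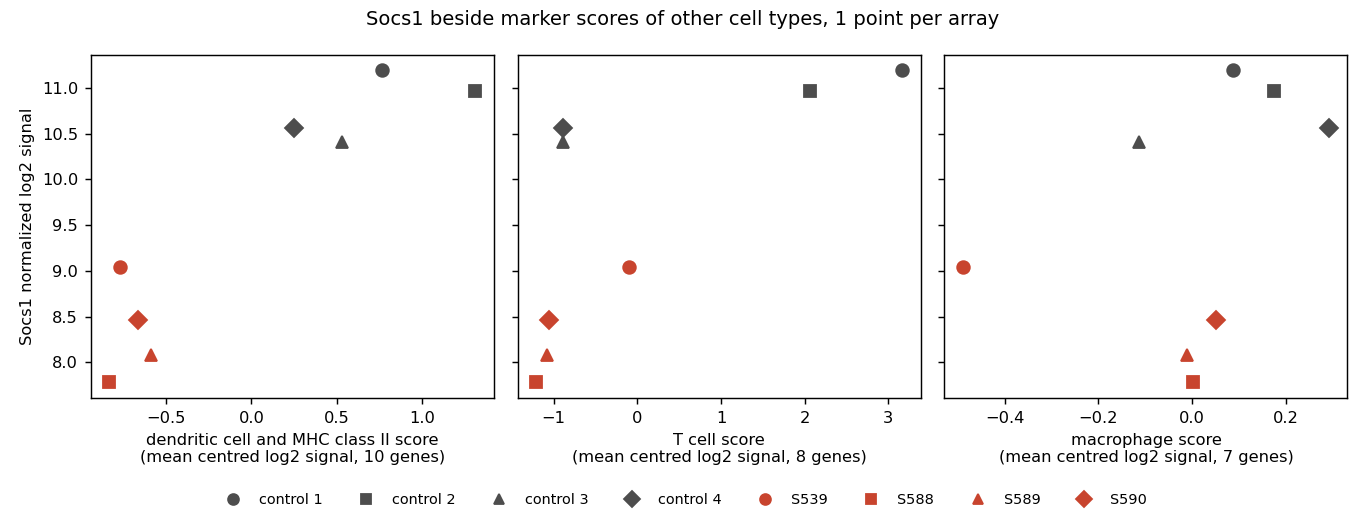
Normalized log2 signal of Socs1 (vertical axis) against the score of dendritic cell and MHC class II, T cell and macrophage markers (horizontal axes, mean centred log2 signal); 1 point is 1 array, grey for control and red for exposed. The dendritic and MHC class II score separates the groups as Socs1 does (0.25 to 1.31 against -0.83 to -0.59), the T cell score is high only on controls 1 and 2, and the macrophage scores overlap.

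Of the other lists, the fibroblast score did not overlap between the groups (0.19 to 0.36 on controls, -0.40 to -0.05 on exposed arrays), with none of 6 genes called (Thy1 is also in the T cell list) and 2 at an unadjusted p under 0.05. The scores of thyrocytes (-0.30 to 0.61 and -0.18 to -0.11), macrophages (-0.11 to 0.29 and -0.49 to 0.05), B cells (0.02 to 0.21 and -0.60 to 0.27) and NK cells (-0.29 to 0.41 and -0.13 to 0.10) overlapped, as did those of neutrophils (-1.03 to 0.00 and -0.78 to 2.38), endothelium (-0.34 to 0.41 and -0.18 to 0.10), skeletal muscle (-0.18 to 1.08 and -1.47 to 0.62) and adipocytes (-0.43 to 0.10 and -0.50 to 0.69). None of the genes of these lists passed limma's threshold or the unmoderated test, and an unadjusted p under 0.05 was found for 1 thyrocyte, 1 thymocyte, 1 NK cell, 2 macrophage, 1 endothelial and 1 adipocyte marker. Their part in the values of the SOCS genes was not tested.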

How the data were processed

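RNA of 8 mouse thyroids, 4 control and 4 exposed, was labelled with Cy3 and hybridised by the authors to Agilent 8x60K mouse arrays. The deposited scanner output of each array gives the intensity of every spot, with and without background subtraction, and marks of whether a spot is well above background or saturated. The authors also deposited log2 values, quantile-normalized in limma per the study's methods, which differed by at most 0.0378 from the quantile-normalized log2 of the median spot signal without background subtraction.

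Here control spots were left out, the log2 of the background-subtracted intensity was quantile-normalized, and the spots of a probe were averaged (R 4.3.3). Groups come from the sample labels. The 55681 probes were fitted with limma 3.58.1 (lmFit and eBayes, exposed minus control, no covariate) with Benjamini-Hochberg adjustment and a threshold of 0.05. Adjusted p-values given for genes outside the family come from this fit. A gene outside the family was read through the brightest of its RefSeq probes, or of all its probes where none had a RefSeq accession. Where every array of a group read a probe as not well above background, its fold is given against a floor. That fold is a bound, "at least", only for Clec9a, which was well above background on every control array. Any log2 difference printed for a probe given against the floor is the fitted value and not that fold. The mean of the brighter group was then set against a floor, which on each array was the lowest signal of any probe well above background, or the probe's own signal if higher. Precision is limited by having 4 arrays a group.

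The members and lists were chosen with earlier results of these data known. Named were all probes of the 8 members, the JAK and STAT genes (1 of them is not reported here), list genes past the threshold (at most the 5 largest in each direction), and the 5 genes most like Socs1. The pathway lists (cytokines, receptors, JAK kinases, STAT factors, other inhibitors, SOCS box partners, bound receptors and adaptors, and targets of interferon gamma, STAT3, STAT5 and STAT6) and the 12 marker lists were written from general knowledge. Adgre1 was not found among the gene names, and its older name Emr1 was. Alternatives were 75th percentile scaling, normexp (offset 50), spot signals without background correction, the deposited log2 values, leaving out dim probes, a variance trend, an unmoderated test (the methods' t-test, named there for comparisons of 2 groups in general and not for the arrays), the mean of all probes of a gene, each array left out in turn, and, added after seeing the data, controls 1 and 2 left out together. Positions of probes were taken from the array files (mm9). Exon and UTR annotation in that build was not used here.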

Additional observations from a re-analysis of the deposited data

Results flagged for a closer look

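In 56 groups of 4 arrays (the 14 SOCS probes, the 2 called pathway genes and the 12 marker scores, each in control and exposed thyroids), the gap between an extreme array and its neighbour was compared with Dixon's 95% critical value. Chance gives about 1 in 20 groups, here 2.8, and 3 passed. None was a SOCS probe. Arg1 on S589 had a log2 signal of 4.39, against 3.12 to 3.19 on the other exposed arrays, all of them not well above background. The T cell score of S539 was -0.10, against -1.21 to -1.06 on the other exposed arrays. The macrophage score of S539 was -0.49, against -0.01 to 0.05. S539 was also the exposed array with the highest Socs1, Socs3 and Cish signal, and the part of these cells in the SOCS values was not tested.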

How the results depend on the processing

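The Socs1 difference kept its sign in all 16 alternatives. Its call, from which nothing is read since the family was chosen on this contrast, was lost in the unmoderated test (-2.45), without control 2, S589 or S590, and without controls 1 and 2 together (-2.15). With 1 array left out it ranged from -2.68 to -2.26. The number of SOCS probes past the threshold was accordingly 1 or 0: 0 with the unmoderated test, 0 to 1 with 1 array left out, and 0 without controls 1 and 2. The signs of 11 probes did not turn in any alternative. Socs5 turned to -0.047 with normexp, to -0.039 without background correction and in the deposited values, and to -0.24 without controls 1 and 2. The Socs6 probe A_55_P2034903 turned to 0.078 with 75th percentile scaling, and A_55_P2150652 to 0.14 without controls 1 and 2. With 1 array left out, Socs5 ranged from -0.14 to 0.10 (below 0 without control 1, control 2 or S539) and A_55_P2034903 from -0.70 to 0.026 (above 0 without S588). The pathway genes past the threshold, 1 higher and 1 lower, became 3 and 2 with 75th percentile scaling, 2 and 4 with normexp or a variance trend, 3 and 5 without background correction or in the deposited values, 2 and 3 with the filter on dim probes, 0 and 0 with the unmoderated test or without controls 1 and 2, 0 higher and 0 to 1 lower with 1 array left out, and 1 and 3 with the mean of all probes of a gene. Bcl2l1 and Arg1 were both kept in 4 of these settings, and the cause of the other changes was not tested. In the deposited values 3 of the 5 genes most like Socs1 were still among the first 5. Over all probes, 75.2% of those past the threshold were higher, against 84.7% with 75th percentile scaling, where the median of all probes moved from 0.01 to 0.16. Over all probes 435 passed, against 962 without background correction, 955 in the deposited values, 857 with normexp, 744 with a variance trend and 733 with the filter, and 100 to 481 with 1 array left out. No paired analysis was possible because control and exposed mice share no replicate numbers. Signals near background limit Arg1, Il7 and 2 of the 4 Socs6 probes, and 4 arrays a group limit the rest.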
